A study of Mus musculus with 12 samples.

Results

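The genes that build triglyceride from glycerol 3-phosphate, and those that supply the glycerol backbone, were followed across the early differentiation of 3T3-L1 cells with and without knockdown of PRMT1. The 10 genes were taken by name (Gpd1, Gpd1l, Pck1, Aqp7, Gpam, Agpat2, Lpin1, Lpin2, Dgat1 and Dgat2), and all 10 had a row among the 39423 genes of the count table and in the table of FPKM, fragment counts scaled to transcript length and to library size.

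Triglyceride is assembled by adding fatty acyl groups to a glycerol 3-phosphate backbone. The backbone comes from glucose through the cytosolic glycerol-3-phosphate dehydrogenases (Gpd1 and the related Gpd1l), or from pyruvate and amino acids by glyceroneogenesis, in which phosphoenolpyruvate carboxykinase (Pck1) takes the committed step. In fat cells glycerol itself crosses the membrane through the aquaglyceroporin Aqp7. The mitochondrial acyltransferase Gpam adds the first acyl chain, Agpat2 the next to give phosphatidic acid, the lipins (Lpin1 and Lpin2) remove the phosphate, and the diacylglycerol acyltransferases (Dgat1 and Dgat2) add the last chain. These enzymes are known to be induced when preadipocytes become lipid-filled adipocytes, and loss of AGPAT2 in people or of lipin 1 in mice causes lipodystrophy.

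RNA was sequenced from 3T3-L1 cells, a mouse preadipocyte line, transfected with a non-targeting siRNA (siCtrl, labelled NC) or with siRNA against the arginine methyltransferase PRMT1 (siPRMT1). All cells received the adipogenic cocktail of dexamethasone, 3-isobutyl-1-methylxanthine and insulin (MDI), for 24 h or for 72 h, so no group shows uninduced cells. Each of the 4 groups held 3 libraries, 12 in all, with 15116462 to 42357137 counts per library. The sources do not say which of the PRMT1 siRNAs was used for these libraries. The study's methods speak of independent experiments for its data in general, and no label says so of these libraries, so the p-values measure the spread between them, which may be technical. Libraries of a group differed by more than counting noise, and siCtrl replicate 3 at 24 h stood apart, with a chi-square per gene of 30.8 and 50.6 against its own group where the other pair of that group gave 5.30. Counts of calls at 24 h are therefore also given without it. Prmt1 itself was at 82.9 to 91.3 FPKM in siCtrl and 38.6 to 43.8 FPKM in siPRMT1 libraries at 24 h, and at 111 to 140 and 62.0 to 71.7 FPKM at 72 h, so knockdown was partial and the groups did not overlap at either time.

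RefSeq promoter windows on build GRCm38.p6, running from 250 bases before to 50 bases after a start site, were found for 7 of the 10 genes. Gpd1, Dgat1 and Dgat2 had no entry. The 3 windows printed here belong to Pck1, which had no count at 24 h and was present at 72 h, and to the lipin pair, of which Lpin1 rose over induction and Lpin2 was not called. Pck1 lies at chr2:173152823-173153122 on the plus strand, Lpin1 at chr12:16610917-16611216 on the minus strand, and the first of 3 Lpin2 entries at chr17:71183282-71183581 on the plus strand. Each is written in the direction of transcription, and capitals mark a motif match. The Lpin1 window belongs to a start site inside the gene, whose exons begin at 16646969 on the minus strand.
Pck1: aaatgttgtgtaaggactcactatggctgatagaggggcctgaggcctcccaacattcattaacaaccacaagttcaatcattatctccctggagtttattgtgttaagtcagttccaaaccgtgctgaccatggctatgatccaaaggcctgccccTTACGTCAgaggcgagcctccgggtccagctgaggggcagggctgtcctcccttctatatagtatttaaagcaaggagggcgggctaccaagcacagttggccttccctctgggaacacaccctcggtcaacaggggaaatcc
Lpin1: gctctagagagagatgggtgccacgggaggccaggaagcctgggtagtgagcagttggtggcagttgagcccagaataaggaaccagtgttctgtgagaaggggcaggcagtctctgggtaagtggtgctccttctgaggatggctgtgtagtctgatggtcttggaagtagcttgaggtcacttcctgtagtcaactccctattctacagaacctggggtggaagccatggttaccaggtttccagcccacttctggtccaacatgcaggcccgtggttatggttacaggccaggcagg
Lpin2: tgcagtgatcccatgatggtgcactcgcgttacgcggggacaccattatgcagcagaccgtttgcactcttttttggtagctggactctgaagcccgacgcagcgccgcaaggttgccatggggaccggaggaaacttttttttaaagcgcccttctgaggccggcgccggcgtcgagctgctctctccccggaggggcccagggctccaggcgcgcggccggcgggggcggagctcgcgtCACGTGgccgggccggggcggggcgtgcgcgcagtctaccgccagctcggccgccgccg
Both strands of every window were searched for 5 motifs. The TATA box, searched as TATAAA, was in 13.6% of the 32851 RefSeq promoter windows of this length. The E-box CACGTG was in 7.15%, the cAMP response element TTACGTCA in 0.499% and the C/EBP palindrome TTGCGCAA in 0.183%. The CCAAT box, searched by those letters, was in 37.4%. None of these 5 strings contains another. The Pck1 window held TTACGTCA with its first base at -93 from the start site. The Lpin2 window held CACGTG at -9. None of the 5 letter strings was in the Lpin1 window or in those of Agpat2 and Aqp7. The Gpd1l window held CACGTG at -127 and CCAAT on the opposite strand at -136, and 1 of the 2 Gpam windows held CCAAT on the opposite strand at -74. The third Lpin2 entry, at chr17:71204404-71204703, held CCAAT on the opposite strand 3 times. A match here describes letters in a window and was not tied to binding of any factor.

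The 4 comparisons and their interaction were tested with edgeR's quasi-likelihood test over all genes, and a call needed both an absolute log2 fold change over 0.5 and a p under 0.05 after Benjamini-Hochberg adjustment. Between 24 and 72 h of induction, 7 of the 8 genes with at least 10 counts in every library rose in siCtrl cells and 7 of 8 rose in siPRMT1 cells, Lpin2 being the exception in both. The other two, Pck1 and Aqp7, were called higher in both courses as well, 9 of 10 in all, but they entered the test through their 72 h libraries alone and are described separately. With limma on log2(FPKM + 1) the number called higher was 7 in each course. Over the same course 22.7% of 13829 genes tested were called higher and 20.4% lower in siCtrl cells, and 19% of 14224 were higher and 17.4% lower in siPRMT1 cells. The median log2 fold change of the 8 genes was 2.36 in siCtrl and 2.16 in siPRMT1 cells, against -0.004 and 0.002 over all genes tested. Over all genes with at least 10 counts in every library the medians were -0.007 and -0.005. Of these genes 21.1% were called higher and 19.8% lower in siCtrl cells, and 17% higher and 17% lower in siPRMT1 cells. None of the 10 was called lower over either course by edgeR, DESeq2 or limma on log2(FPKM + 1), and at an unadjusted p under 0.05 there were 0 lower in siCtrl and 1 lower in siPRMT1 cells, which was Lpin2. The 2 courses share no library, but each shares its libraries with the knockdown comparisons.

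At 72 h Gpd1, Dgat2, Lpin1 and Aqp7, 4 of the 10 genes, were lower in siPRMT1 than in siCtrl cells, where 3.8% of 14039 genes tested were called lower and 2.84% higher. DESeq2 and limma on log2(FPKM + 1) each called 3 lower, without Aqp7. None was called higher, with 0 also at an unadjusted p under 0.05 and 0 by DESeq2 and by limma. All 10 log2 fold changes were negative, 8 of the 10 passed the adjusted p without regard to size, and the median was -0.52 against 0.007 over all genes tested. In all 10 genes the highest siPRMT1 library was under the lowest siCtrl library (in CPM, counts scaled to library size with TMM factors), which held for 18.1% of all genes tested. At 24 h 8 of the 10 genes had enough counts to be tested, and none was called in either direction, where 1.61% of 13689 genes were called lower and 1.95% higher. DESeq2 and limma called 0 as well, and before adjustment 5 of the 8 were lower and 0 higher at p under 0.05. In 6 of these 8 genes the siPRMT1 libraries lay wholly under the siCtrl libraries, against 16% of all genes tested, and the median was -0.24 against 0.01. Without siCtrl replicate 3 the number called at 24 h was again 0, although 4 of the 8 then passed the adjusted p without regard to size where 1 did with it, and the log2 fold changes ran from -0.36 for Lpin1 to 0.45 for Gpd1. The siCtrl course without it again had 9 of the 10 genes called higher.

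**Figure D1:**
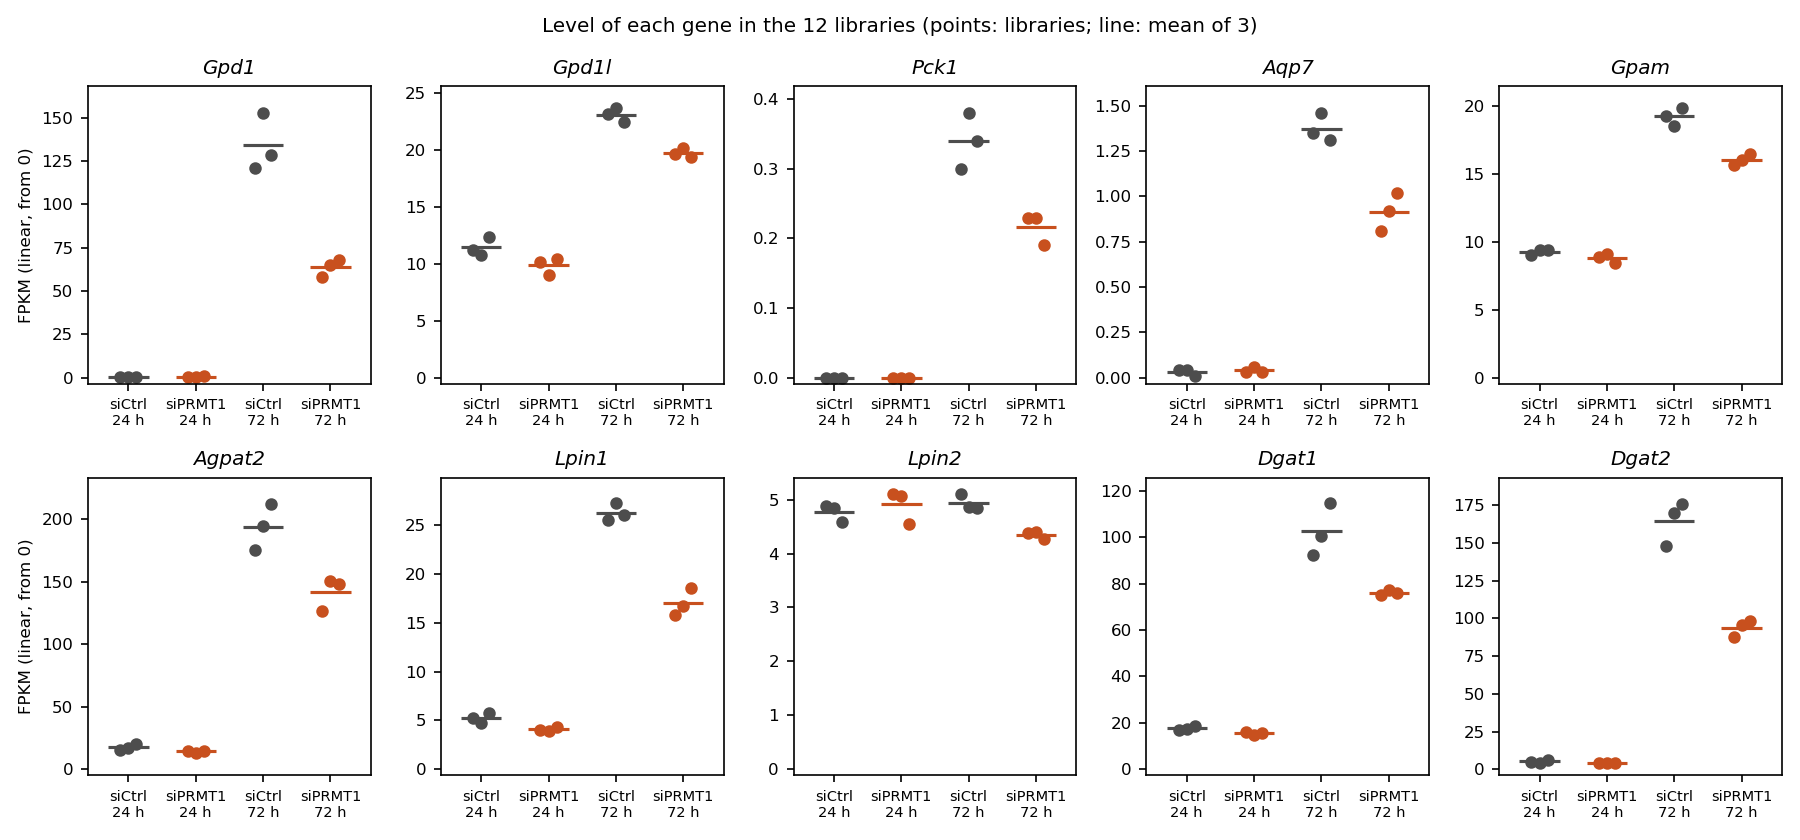
FPKM of each gene (vertical axis, linear and starting at 0, scaled to each gene) in the 12 libraries, with points for libraries and a line for the mean of 3. At 72 h all 3 siPRMT1 points lie below all 3 siCtrl points in each of the 10 genes, while Lpin2 stays near the level it had at 24 h.

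Gpd1, the cytosolic enzyme that makes glycerol 3-phosphate from dihydroxyacetone phosphate, had the largest rise of the 9 genes with counts at 24 h and the largest knockdown difference of the 10 genes at 72 h (chr15:99717593-99725008, plus strand, mm10). At 24 h it was near the bottom of the range, at 0.48, 0.45 and 0.62 FPKM in siCtrl and 0.49, 0.63 and 0.89 FPKM in siPRMT1 libraries, from 27 to 60 counts each. The groups overlapped, and the log2 fold change of 0.33 ± 0.25 (SE) did not pass (edgeR, adjusted p = 0.466). At 72 h Gpd1 reached 121, 153 and 129 FPKM in siCtrl but 58.0, 65.1 and 68.0 FPKM in siPRMT1 libraries. The highest siPRMT1 library was far below the lowest siCtrl library, and the siPRMT1 mean was 47.5% of the siCtrl mean. The log2 fold change under knockdown was -1.08 ± 0.09 (edgeR, adjusted p = 2.5e-06). Mean FPKM rose 259.7-fold from 24 to 72 h in siCtrl and 95.0-fold in siPRMT1 cells.

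That difference between the courses was itself tested as the interaction of siRNA and time. For Gpd1 the log2 knockdown effect at 72 h minus that at 24 h was -1.40 ± 0.25 (edgeR, adjusted p = 0.00288), and it was called in each of 21 alternative settings. Gpd1 was the 1 gene of 9 with an interaction called, where 3.47% of 14612 genes tested were called lower and 4.77% higher. None was called higher, also with 0 at an unadjusted p under 0.05 and 0 by DESeq2 and limma. Pck1 gave no interaction because both of its 24 h groups had no count. Aqp7, with 1 to 5 counts per library at 24 h, entered this test through its 72 h libraries alone. The median interaction of the 8 genes with at least 10 counts in every library was -0.18, against 0.02 over all genes tested and 0.01 over the 12286 genes with such counts. Exons of Gpd1 overlap Gm16537 on the other strand, which had 1 to 11 counts per library, and the sources do not say whether counting used strand.

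Gpd1l, the related dehydrogenase, was already present at 24 h (chr9:114899339-114933987, minus strand). It stood at 11.2, 10.8 and 12.3 FPKM in siCtrl and 10.2, 9.03 and 10.4 FPKM in siPRMT1 libraries, and at 72 h at 23.2, 23.6 and 22.4 against 19.7, 20.2 and 19.4 FPKM. It therefore rose about as much in both, by 0.94 ± 0.09 and 0.99 ± 0.07 on the log2 scale, and the groups did not overlap at either time. Under knockdown its log2 fold change was -0.26 at 24 h and -0.23 at 72 h (edgeR, adjusted p = 0.106 and 0.0274), neither large enough to be called. At 24 h Gpd1l was the main dehydrogenase transcript of the pair, with a Gpd1 to Gpd1l FPKM ratio of 0.042 to 0.050 in siCtrl libraries. At 72 h the order had turned, with ratios of 5.23, 6.46 and 5.74 in siCtrl and 2.95, 3.23 and 3.51 in siPRMT1 libraries.

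Pck1, the enzyme of glyceroneogenesis, had 0 counts in all 6 libraries at 24 h (chr2:173153073-173159254, plus strand). A count of 0 over a group allows up to 3 counts, or 0.035 CPM in siCtrl and 0.040 in siPRMT1 cells. At 72 h there were 16, 15 and 21 counts in siCtrl and 13, 16 and 12 counts in siPRMT1 libraries, which is 0.30, 0.38 and 0.34 against 0.23, 0.23 and 0.19 FPKM. Against the floor of 3 counts over the group, Pck1 was at least 24.9-fold higher at 72 h in siCtrl and at least 14.1-fold higher in siPRMT1 cells. The siPRMT1 mean was 63.7% of the siCtrl mean at 72 h and the groups did not overlap in FPKM, but with so few counts the log2 fold change of -0.64 ± 0.28 did not pass (edgeR, adjusted p = 0.132). Pck1 was the lowest of the 10 genes in each of the 4 groups.

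Aqp7, the glycerol channel of fat cells, was also barely detected at first (chr4:41033074-41048295, minus strand). It had 5, 3 and 1 counts in siCtrl and 2, 5 and 2 counts in siPRMT1 libraries at 24 h, too few to test. At 72 h it stood at 1.35, 1.46 and 1.31 FPKM in siCtrl and 0.81, 0.92 and 1.02 FPKM in siPRMT1 libraries, from 55 to 99 counts, with no overlap. Over the course it rose by 5.23 ± 0.28 on the log2 scale in siCtrl and by 4.52 ± 0.30 in siPRMT1 cells. The knockdown log2 fold change of -0.58 ± 0.15 was called (edgeR, adjusted p = 0.0138), but the call rested on single libraries. It was lost without siCtrl replicate 2 (-0.53, adjusted p = 0.0511) and without siPRMT1 replicate 2 (-0.57, adjusted p = 0.0537). DESeq2 did not call Aqp7 (adjusted p = 0.0520), and limma on log2(FPKM + 1) put its log2 fold change under the size threshold (-0.31). Adjusted p ran from 0.00778 to 0.0773 in 16 alternatives.

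**Figure D2:**
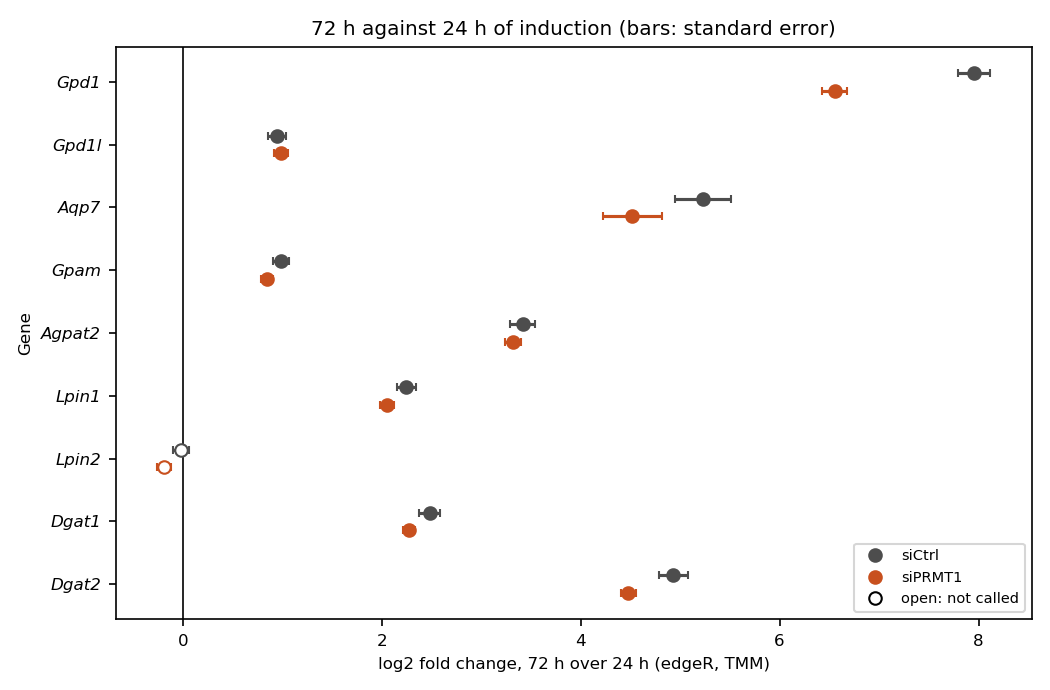
Log2 fold change from 24 to 72 h (horizontal axis, edgeR with TMM scaling) of 9 genes in siCtrl and siPRMT1 cells, with standard errors as bars, filled points for called genes and open points for those not called. Gpd1 rises most of the 9 shown, by 7.96 in siCtrl and 6.55 in siPRMT1 cells, and Lpin2 is the gene without a call in either.

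Gpam, which attaches the first acyl chain at the mitochondrial membrane, changed modestly (chr19:55067635-55127233, minus strand). At 24 h it stood at 9.01, 9.37 and 9.40 FPKM in siCtrl and 8.91, 9.13 and 8.46 FPKM in siPRMT1 libraries, ranges that overlap in FPKM. At 72 h it stood at 19.3, 18.5 and 19.9 against 15.7, 16.0 and 16.4 FPKM, which do not. It rose by 0.98 ± 0.08 on the log2 scale in siCtrl and by 0.85 ± 0.06 in siPRMT1 cells. Under knockdown the log2 fold change was -0.12 ± 0.07 at 24 h and -0.27 ± 0.07 at 72 h (edgeR, adjusted p = 0.346 and 0.0116), both under the size needed for a call. Exons of Gpam overlap Gm31356 on the other strand, which had 8 to 39 counts per library.

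Agpat2, the acyltransferase that makes phosphatidic acid, had the highest mean FPKM of the 10 genes at 72 h in both siCtrl and siPRMT1 cells (chr2:26593057-26604417, minus strand). It moved from 15.7, 16.6 and 19.9 FPKM at 24 h to 175, 195 and 212 FPKM at 72 h in siCtrl libraries, and from 14.7, 13.1 and 14.7 to 127, 151 and 149 FPKM in siPRMT1 libraries. Knockdown libraries were below controls without overlap at both times. The rise was 3.42 ± 0.12 on the log2 scale in siCtrl and 3.32 ± 0.08 in siPRMT1 cells. The knockdown log2 fold change was -0.34 ± 0.11 at 24 h (edgeR, adjusted p = 0.0913) and -0.46 ± 0.08 at 72 h (edgeR, adjusted p = 0.00183), the latter passing the adjusted p but not the size threshold. Without siCtrl replicate 1 it passed both, at -0.54.

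The lipins, which convert phosphatidic acid to diacylglycerol, behaved differently from one another. Lpin1 (chr12:16535669-16646969, minus strand) was at 5.25, 4.78 and 5.77 FPKM in siCtrl and 4.03, 3.91 and 4.28 FPKM in siPRMT1 libraries at 24 h. At 72 h it was at 25.5, 27.3 and 26.0 against 15.8, 16.7 and 18.5 FPKM. Controls were higher at both times without overlap. Lpin1 rose by 2.25 ± 0.10 on the log2 scale in siCtrl and by 2.05 ± 0.07 in siPRMT1 cells. The log2 fold change under knockdown was -0.42 ± 0.09 at 24 h (edgeR, adjusted p = 0.0281), which missed the size threshold, and -0.63 ± 0.07 at 72 h (edgeR, adjusted p = 4.2e-05), which was called in 16 of 16 alternatives.

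Lpin2 (chr17:71183527-71249818, plus strand) kept a nearly constant level. It was at 4.88, 4.84 and 4.58 FPKM in siCtrl and 5.11, 5.07 and 4.55 FPKM in siPRMT1 libraries at 24 h, and at 5.11, 4.86 and 4.85 against 4.38, 4.40 and 4.27 FPKM at 72 h. The groups overlapped at 24 h and separated at 72 h, where the siPRMT1 mean was 88.1% of the siCtrl mean. Its course was -0.02 ± 0.08 on the log2 scale in siCtrl (edgeR, adjusted p = 0.864) and -0.19 ± 0.07 in siPRMT1 cells (edgeR, adjusted p = 0.0265, under the size threshold). The knockdown log2 fold change was -0.01 ± 0.08 at 24 h and -0.19 ± 0.07 at 72 h (edgeR, adjusted p = 0.968 and 0.0774).

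The final acylation can be made by either of 2 enzymes that are unrelated in sequence. Dgat1 (chr15:76502015-76512021, minus strand) was at 16.9, 17.1 and 18.6 FPKM in siCtrl and 16.0, 15.0 and 15.8 FPKM in siPRMT1 libraries at 24 h, and at 92.6, 101 and 115 against 74.9, 77.2 and 76.1 FPKM at 72 h. It was the highest of the 10 genes by mean FPKM at 24 h in both groups, its range overlapping that of Agpat2 in siCtrl. It rose by 2.48 ± 0.10 on the log2 scale in siCtrl and by 2.28 ± 0.06 in siPRMT1 cells. The knockdown log2 fold change was -0.22 ± 0.07 at 24 h (edgeR, adjusted p = 0.108) and -0.44 ± 0.08 at 72 h (edgeR, adjusted p = 0.0015), short of the size threshold except without siCtrl replicate 1, where it was -0.53.

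Dgat2 (chr7:99153663-99182713, minus strand), the isoform associated with newly made fatty acids, changed more. It was at 4.86, 4.38 and 6.23 FPKM in siCtrl and 4.32, 4.10 and 4.11 FPKM in siPRMT1 libraries at 24 h. At 72 h it was at 148, 170 and 176 FPKM in siCtrl and at 88.0, 95.5 and 98.1 FPKM in siPRMT1 libraries. The controls were higher without overlap at both times. It rose by 4.93 ± 0.15 on the log2 scale in siCtrl and by 4.48 ± 0.07 in siPRMT1 cells. The knockdown log2 fold change was -0.35 ± 0.14 at 24 h (edgeR, adjusted p = 0.156), or -0.21 without siCtrl replicate 3, and -0.82 ± 0.08 at 72 h (edgeR, adjusted p = 9.1e-06), the latter called in 16 of 16 alternatives. The siPRMT1 mean at 72 h was 57.0% of the siCtrl mean. Its interaction of -0.45 ± 0.16 did not pass (edgeR, adjusted p = 0.0778), although it did without siCtrl replicate 3 at 24 h (-0.62, adjusted p = 0.00244), the library that stood apart, and without siCtrl replicate 1 at 72 h (-0.52, adjusted p = 0.0496).

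**Figure D3:**
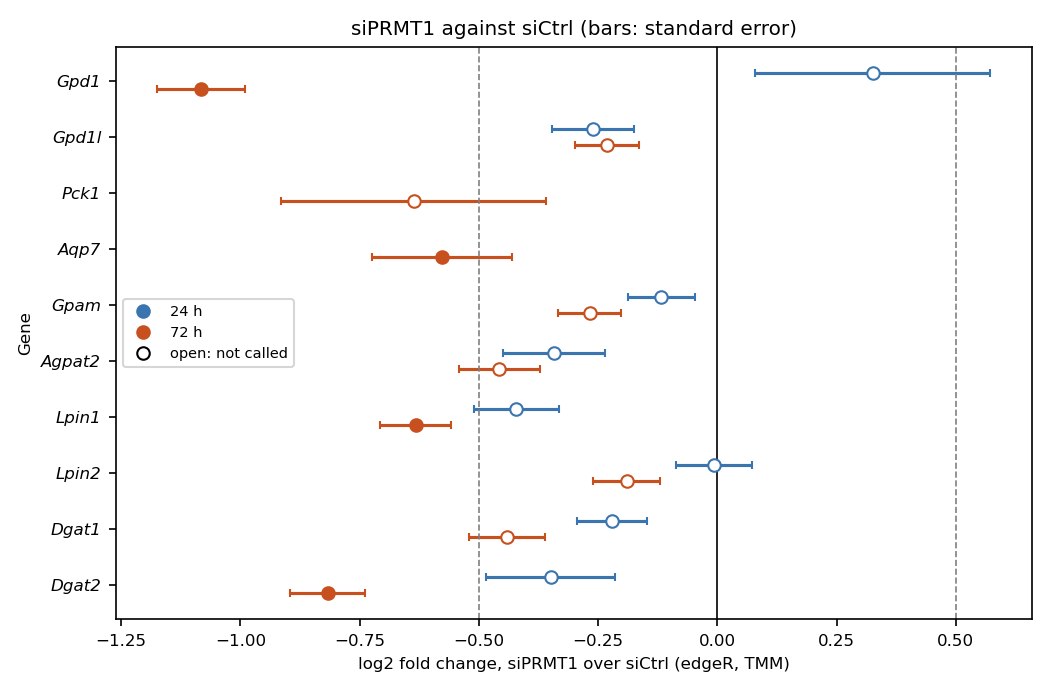
Log2 fold change of siPRMT1 over siCtrl (horizontal axis, edgeR with TMM scaling) for each gene at 24 h and 72 h, with standard errors as bars, dashed lines at the size threshold of 0.5, filled points for called genes and open points for those not called. At 72 h all 10 points lie below 0 and 4 are filled, from -0.58 for Aqp7 to -1.08 for Gpd1, while no 24 h point is filled.

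Within a step the balance of the paired enzymes can be read inside each library, without dependence on library scaling. The log2 ratio of Gpd1 to Gpd1l at 72 h was 2.53 ± 0.15 (SD, n = 3) in siCtrl and 1.69 ± 0.13 in siPRMT1 libraries. That of Dgat2 to Dgat1 at 72 h was 0.68 ± 0.07 and 0.30 ± 0.07. That of Lpin1 to Lpin2 at 72 h was 2.41 ± 0.08 and 1.96 ± 0.14. In each of these 3 pairs the 72 h groups did not overlap, and the differences of -0.85, -0.38 and -0.45 each had the smallest p an exact two-sided permutation test of 3 against 3 libraries can give, 0.1 (0.15 adjusted over the 6 ratios tested), so this design could not reach 0.05. At 24 h the Lpin1 to Lpin2 ratio differed by -0.41 (exact permutation p = 0.1, adjusted 0.15). The Gpd1 to Gpd1l difference was 0.56 (exact permutation p = 0.2, adjusted 0.24) and that of Dgat2 to Dgat1 -0.12 (exact permutation p = 0.5, adjusted 0.5), with overlapping groups in both. Without siCtrl replicate 3 the 3 differences at 24 h were -0.31, 0.64 and -0.016.

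**Figure D4:**
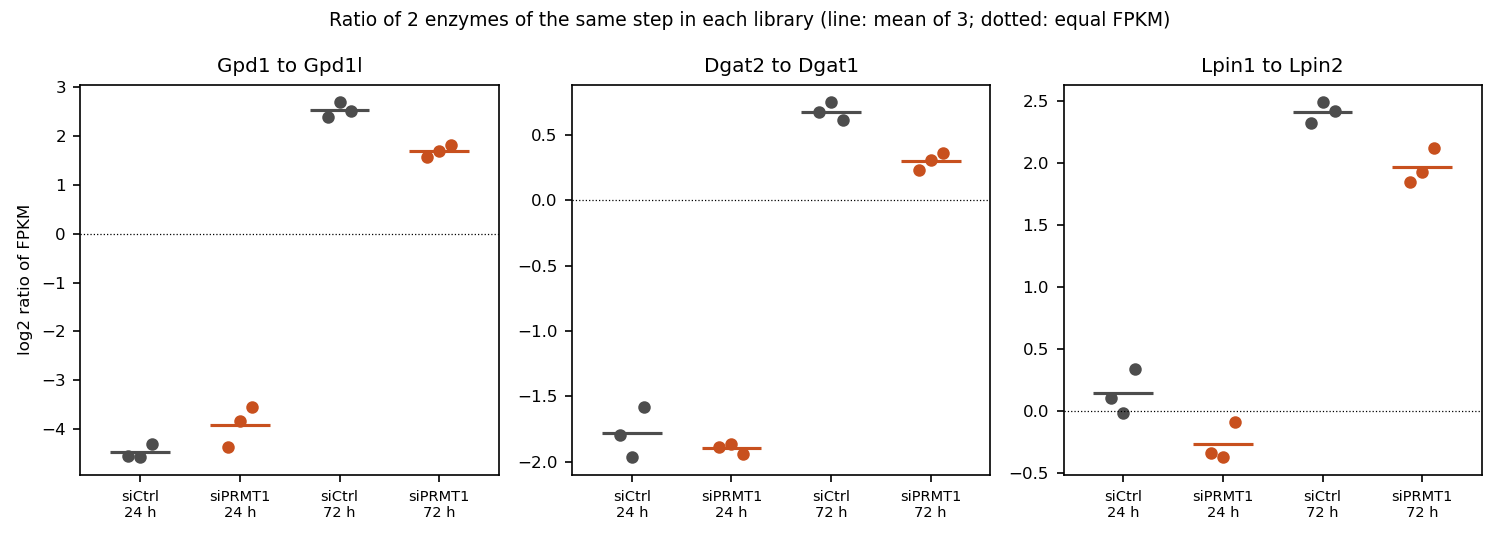
Log2 ratio of FPKM of the paired enzymes of a step (vertical axis) in the 12 libraries, with points for libraries, a line for the mean of 3 and a dotted line at equal FPKM. Between 24 and 72 h Gpd1 to Gpd1l and Dgat2 to Dgat1 cross from below to above the dotted line, and at 72 h all siPRMT1 points lie below all siCtrl points in the 3 panels.

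Summed over the 10 genes, FPKM was 68.3 to 77.5 in siCtrl and 60.0 to 63.7 in siPRMT1 libraries at 24 h, and 612 to 706 and 404 to 450 at 72 h. In siCtrl cells at 72 h the order by mean FPKM was Agpat2, Dgat2, Gpd1, Dgat1, Lpin1, Gpd1l, Gpam, Lpin2, Aqp7 and Pck1, where Agpat2 and Dgat2, and Dgat2 and Gpd1, had overlapping ranges. In siPRMT1 cells Dgat1 stood above Gpd1 and Gpd1l above Lpin1, and the overlapping neighbours were Lpin1 and Gpam. At 24 h Gpd1, Aqp7 and Pck1 took the last 3 places in both groups.

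The genes whose levels tracked Gpd1, Dgat2 and Lpin1 most closely over the 12 libraries were taken by the smallest root mean square distance of centred log2 CPM among 12467 genes. For Gpd1 these were Nat8l (0.35), Thrsp (0.37) and Lgals12 (0.44). For Dgat2 they were Sort1 (0.20), Ces1d (0.23) and Mcam (0.23). Lpin1 was closest to Lrig1 (0.09), Pcx (0.10) and Cldn15 (0.12). The 12 libraries fall into 4 groups, so these distances describe the shared group pattern.

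Of 28 other genes of triglyceride synthesis and glycerol handling, 22 were tested at 72 h. Of these 3 were called lower and 0 higher under knockdown (edgeR), beside 3.8% lower and 2.84% higher over all genes tested. Their median log2 fold change was -0.12, against 0.007 over all genes tested. Before adjustment 9 were lower and 1 higher at p under 0.05, while DESeq2 called 2 lower and 0 higher and limma 1 lower and 0 higher. Agpat9, the older symbol of Gpat3, an endoplasmic reticulum enzyme of the first acylation, was at 45.9, 48.8 and 49.7 FPKM in siCtrl and 30.6, 28.7 and 30.2 FPKM in siPRMT1 libraries. Its log2 fold change was -0.70 ± 0.07 (edgeR, adjusted p = 1.3e-05). Gpat4, another enzyme of that step, was at 28.9 to 33.9 FPKM in siCtrl and 30.5 to 32.1 FPKM in siPRMT1 libraries and was not called (-0.03 ± 0.08, edgeR, adjusted p = 0.838). Bscl2 (seipin, a lipid droplet assembly protein) was at 7.87, 8.32 and 8.16 against 5.27, 5.71 and 5.62 FPKM, a log2 fold change of -0.56 ± 0.09 (edgeR, adjusted p = 5.5e-04) that limma on log2(FPKM + 1) put under the size threshold (-0.48). Bscl2 shares exon positions with Gng3 on the other strand, which had 26 to 82 counts per library and a knockdown log2 fold change of 0.10 ± 0.18 at 72 h (edgeR, adjusted p = 0.751). Agpat1 was called at -1.21 ± 0.32 (edgeR, adjusted p = 0.0183) from 13 to 24 counts in siCtrl and 6 to 12 counts in siPRMT1 libraries, and lost the call without siCtrl replicate 1 (adjusted p = 0.0858), siPRMT1 replicate 1 (adjusted p = 0.0625) or siPRMT1 replicate 2 (adjusted p = 0.0543). It was also lost with DESeq2 (adjusted p = 0.0849) and with limma on unfiltered log2(FPKM + 1) (adjusted p = 0.0717). Exons of Agpat1 overlap Egfl8 on the other strand, which had 0 to 4 counts per library.

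At 24 h 21 of these 28 genes were tested, and 1 was called lower and 1 higher (edgeR), beside 1.61% and 1.95% over all genes tested. The median log2 fold change of the 21 was -0.15, against 0.01 over all genes tested. Agpat9 was the lower, at 2.95, 3.05 and 3.38 FPKM in siCtrl and 1.94, 1.93 and 2.05 FPKM in siPRMT1 libraries (-0.71 ± 0.10, edgeR, adjusted p = 0.00811), and it lost the call without siPRMT1 replicate 1 (adjusted p = 0.0503) or replicate 3 (adjusted p = 0.0515), and under limma on log2(FPKM + 1), at -0.47. Bscl2 was the higher, at 3.08, 3.33 and 2.65 against 4.57, 4.74 and 4.67 FPKM (0.57 ± 0.11, edgeR, adjusted p = 0.0229), and leaving out any 1 of the 6 libraries ended that call, with values from 0.49 to 0.64. Gng3, on the other strand of Bscl2, was likewise higher without overlap at 24 h, at 0.72 to 1.18 FPKM in siCtrl and 1.70 to 1.97 FPKM in siPRMT1 libraries (0.79 ± 0.20, edgeR, adjusted p = 0.0517). The part of Gng3 reads in the Bscl2 values was not tested. Without siCtrl replicate 3 the list again had 1 lower (Agpat9) and 1 higher, which was then Aqp3 in place of Bscl2, and a median of -0.059. Over the course 10 of 22 tested rose and 4 fell in siCtrl, beside 22.7% higher and 20.4% lower over all genes. Without siCtrl replicate 3 at 24 h, 12 of 22 rose and 3 fell. In siPRMT1 cells 8 of 21 rose and 2 fell, beside 19% and 17.4%. Agpat9 rose by 3.88 and 3.91 on the log2 scale, and pyruvate carboxylase (Pcx), which feeds glyceroneogenesis, by 2.09 and 2.05. Fitm2, a lipid droplet formation protein, rose by 1.92 and 1.86. Under knockdown at 24 h the log2 fold change was -0.43 ± 0.12 for Pcx and -0.26 ± 0.12 for Fitm2 (edgeR, adjusted p = 0.0616 and 0.228). At 72 h it was -0.48 ± 0.07 for Pcx and -0.32 ± 0.08 for Fitm2 (edgeR, adjusted p = 4.1e-04 and 0.00915), both under the size threshold.

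The branch that leads from the same intermediates to phospholipids was listed as 20 genes, of which 17 were tested in each comparison. Under knockdown at 24 h edgeR, DESeq2 and limma each called 0 in either direction, with 2 lower and 1 higher at an unadjusted p under 0.05, and edgeR again called 0 without siCtrl replicate 3. Over all genes tested edgeR called 1.61% lower and 1.95% higher at 24 h. At 72 h edgeR, DESeq2 and limma each called 1 lower and 0 higher, with a median log2 fold change of 0.03, and 2 were lower and 4 higher at an unadjusted p under 0.05. Over all genes tested edgeR called 3.8% lower and 2.84% higher at 72 h, with a median of 0.007. The gene of this list called lower was Pemt, which methylates phosphatidylethanolamine, at -0.66 ± 0.10 (edgeR, adjusted p = 2.8e-04). Over the course 6 of 17 rose and 3 fell in siCtrl, beside 22.7% higher and 20.4% lower over all genes, and 6 rose and 2 fell in siPRMT1 cells, beside 19% and 17.4%.

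Markers of the cells themselves also differed under knockdown, and their difference from the 10 genes was not tested. Of 8 adipocyte markers (Pparg, Cebpa, Fabp4, Adipoq, Plin1, Cidec, Lpl and Cd36), 7 were tested at 24 h and 4 of these were called lower under knockdown, beside 1.61% of all genes tested. Without siCtrl replicate 3 the number called lower at 24 h was 3. At 72 h 3 of the 8 were called lower, beside 3.8% of all genes tested. Their median log2 fold change was -0.65 at 24 h and -0.47 at 72 h. In the 10 genes it was -0.24 over the 8 tested at 24 h and -0.52 at 72 h. The summed FPKM of the adipocyte markers was 148 to 154 in siCtrl and 112 to 126 in siPRMT1 libraries at 24 h. At 72 h it was 2802 to 3019 against 2175 to 2384. The interaction was positive in 7 of these 8 markers, with a median of 0.35, but 0 of the 8 were called (edgeR), and only 7 were tested at 24 h. Without siCtrl replicate 3 at 24 h that median was 0.18, again with 0 called. Of the 10 genes, the 8 with at least 10 counts in every library had a median interaction of -0.18, with 1 called lower. Of 8 preadipocyte markers (Dlk1, Pdgfra, Pdgfrb, Thy1, Cd34, Ly6a, Col1a1 and Fbn1), 4 log2 fold changes were below and 4 above 0 at 24 h, where no marker was called with or without siCtrl replicate 3. At 72 h 3 of these 8 were called higher, beside 2.84% of all genes tested. The interaction was positive in all 8, with a median of 0.38, and 2 were called higher, beside 4.77% of all genes tested. Without siCtrl replicate 3 at 24 h the median was 0.29, and 2 (Ly6a and Pdgfra) were called higher. Summed FPKM of the 8 preadipocyte markers was lower under knockdown at 24 h, at 954.5 to 993 in siCtrl and 916 to 919 in siPRMT1 libraries. At 72 h it was higher, at 255 to 282 against 300.03 to 356, and the groups did not overlap at either time. The largest parts of the 24 h sum were Ly6a (means of 416 FPKM in siCtrl and 370 in siPRMT1) and Col1a1 (269 and 245). Mean FPKM at 24 h was also lower under knockdown for Dlk1 and Pdgfra, but higher for Pdgfrb, Thy1, Cd34 and Fbn1. No adipocyte or preadipocyte marker was at 0 in a whole group. Fewer cells that had differentiated and less RNA of these genes per cell cannot be told apart in bulk RNA, and the part of the marker shift in the results above was not tested. Markers of other cells were low: 6 macrophage markers summed to 3.79 to 6.66 FPKM over all groups, with Ptprc at 0 throughout and Adgre1 at 0.01 FPKM at most, 5 hepatocyte markers summed to 0.04 to 0.76 FPKM, and Myod1 of 5 muscle markers was at 0 in every library. The muscle sum was 0.77 to 1.29 FPKM over both groups at 24 h, and 10.3 to 13.3 FPKM in siCtrl and 8.97 to 9.79 in siPRMT1 libraries at 72 h. Of the muscle markers Des (desmin) was called lower under knockdown at 72 h, at 6.32 to 6.53 FPKM in siCtrl and 3.54 to 4.0 in siPRMT1 libraries (-0.77 ± 0.09, edgeR, adjusted p = 4.2e-05), while Acta1, the skeletal muscle actin, was at 4.0 to 6.80 and 5.0 to 5.94 FPKM (0.03 ± 0.16, edgeR, adjusted p = 0.915). Both rose over the course, Des by 2.78 and 2.37 and Acta1 by 5.53 and 5.93 on the log2 scale in siCtrl and siPRMT1 cells. Of the macrophage markers Lyz2 was called lower at 24 h (-1.52 ± 0.38, edgeR, adjusted p = 0.0486). The part of these markers in the results above was not tested.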

How the data were processed

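Libraries were made from total RNA with an mRNA kit and sequenced on an MGI instrument. The authors deposited one table of counts per gene and one of FPKM for all 12 libraries. The submitters' processing notes name cutadapt 1.11, HISAT2 2.1.0, RSEM 1.2.6 and build mm10, and neither the counting tool's role nor its strand setting is given in the sources used here. The deposited FPKM equalled counts divided by exon length and library total to within 0.005, and gene length was taken from the same table. Counts were tested with edgeR 4.0.16 in R 4.3.3 (TMM, filterByExpr, quasi-likelihood F test, Benjamini-Hochberg adjustment over all genes tested, no covariate), with the thresholds of the study, which used DESeq2. Each comparison held its own 6 libraries and the interaction all 12. DESeq2 1.42.0 and limma 3.58.1 on log2(FPKM + 1) were alternatives, and scripts were tested on simulated data. Ratios were tested by exact permutation. Same-numbered libraries did not deviate together, so replicate numbers were not used as a block. Groups came from the sample labels. The 10 genes, the other lists and the markers were chosen with earlier results of these data known. All 10 genes are named, and of the other lists only genes called in some comparison, except Gpat4, chosen after its values were seen. The floor for a count of 0 covers counting error only, while SE and SD include the spread between libraries. The genes closest in pattern to Aqp7 are not reported here.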

Additional observations from a re-analysis of the deposited data

Results flagged for a closer look

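The log2 knockdown effect differed between 24 h and 72 h, by the edgeR test of the siRNA by time interaction with Benjamini-Hochberg adjustment, in 1 of the 9 genes of the set with a value, in 4 of 22 other genes of triglyceride synthesis and glycerol handling and in 2 of 17 of the phospholipid branch, where 3.47% of 14612 genes tested were called lower and 4.77% higher. Without siCtrl replicate 3 at 24 h, 2 genes of the set were called lower (Dgat2 and Gpd1). Of the 22 others 4 were then lower, Aqp3 joining, and 1 higher, and of the 17 phospholipid genes 2 were lower. With all 12 libraries, the effect for Gpd1 at 72 h minus that at 24 h was -1.40 ± 0.25 (SE, adjusted p = 0.00288). For Bscl2 (seipin) it was -1.11 ± 0.13 (adjusted p = 9.3e-05), from 0.57 at 24 h to -0.56 at 72 h. Gng3, which shares exon positions with Bscl2 on the other strand, had an interaction of -0.67 ± 0.26 (adjusted p = 0.110), and its part in the Bscl2 values was not tested. For Pck2, the mitochondrial phosphoenolpyruvate carboxykinase, it was -0.66 ± 0.11 (adjusted p = 0.00214), from 0.27 to -0.40, with 51.0 to 56.7 FPKM in siCtrl and 64.4 to 67.3 in siPRMT1 libraries at 24 h and 54.8 to 66.3 against 42.4 to 47.2 at 72 h. These 3 were called in each of their 21 alternatives. For Pcyt2, of phosphatidylethanolamine synthesis, it was -0.62 ± 0.11 (adjusted p = 0.00288) and was likewise called in 21 of 21.

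For Pemt it was -0.78 ± 0.23 (adjusted p = 0.0410), for Pgp, which can hydrolyse glycerol 3-phosphate, -0.71 ± 0.19 (adjusted p = 0.0257), and for Cnep1r1, a partner of the lipin phosphatase Ctdnep1, 0.53 ± 0.15 (adjusted p = 0.0304). Each of these 3 calls was lost in 8 of 12 fits that each left out 1 library. In those 12 fits the values ran from -0.99 to -0.55 for Pemt, from -0.88 to -0.57 for Pgp and from 0.44 to 0.64 for Cnep1r1. What sets the size of these differences was not tested.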

How the results depend on the processing

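Of 752 alternative values for 45 log2 fold changes of the 10 genes, 721 kept their direction and their side of the thresholds, 5 lost a call (all Aqp7 at 72 h), 12 gained one and 14 turned sign. Without the size threshold, 1 gene was lower at 24 h, 8 at 72 h and 1 over the course in siPRMT1 cells. The interaction was called lower in 2 genes rather than 1, Dgat2 joining Gpd1, with limma on log2(FPKM + 1) and on log2(FPKM + 0.1), and in 1 to 2 genes with 1 library left out. The sign changes concerned values near 0. Lpin2 at 24 h became 0.034, 0.041 and 0.034 under limma with pseudocount 1, with 0.1 and unfiltered, and ran from -0.061 to 0.039 with 1 library left out. The Lpin2 course in siCtrl became 0.043, 0.051 and 0.043 under the same 3 fits. The Gpd1l interaction became -0.023, -0.016 and -0.023, and ran from -0.037 to 0.087 with 1 library left out, and that of Agpat9 became -0.20, -0.051 and -0.20 and ran from -0.056 to 0.084. With 1 library left out, Pemt at 24 h ran from -0.084 to 0.30 and the Agpat1 interaction from -0.70 to 0.41. The cause was not tested. With the replicate block the calls among the 10 genes were 0 at 24 h, 4 lower at 72 h, 9 higher over each course and 1 lower for the interaction, the same counts as without it, and correlations of same-numbered libraries ran from -0.16 to 0.27, so the numbers are not taken to pair the samples. TMM and RLE scaling shifted all genes by under 0.1 log2 against library totals. Depth limits Pck1 and Aqp7, which had too few counts at 24 h to be tested.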
